A study of Mus musculus with 2 samples.

Results

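The mRNAs of 8 proteins of the U5 snRNP were followed in C3H10 cells with and without knockdown of MALAT1. The genes were Snrnp40, Prpf8, Snrnp200, Eftud2, Prpf6, Ddx23, Txnl4a and Cd2bp2, taken by symbol from a table of 46095 genes. Snrnp40 was chosen by its difference between these same libraries, and the other 7 genes were added as its partners in the particle. Its own difference is therefore given as a description and not as a finding.

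C3H10 (C3H/10T1/2) is a mouse mesenchymal cell line that forms adipocytes after induction. GEO's labels call it a fibroblast precursor with adipogenic ability of strain C57BL/6. That strain is printed as labelled, sits uneasily with the C3H in the line's name, and was not checked. Cells received 100 nM of an antisense oligonucleotide (ASO) with RNAiMAX, either the negative control or one against MALAT1, were grown to confluence, and were then induced with isobutyl-methylxanthine, dexamethasone, troglitazone and insulin and kept in insulin. RNA was taken on day 6 of differentiation. There was 1 library per group, so no difference below has a replicate check. Which of the study's ASOs was sequenced is not named in the sources used here.

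The spliceosome removes introns from pre-mRNA and is built from small nuclear ribonucleoproteins (snRNPs), each with its own small nuclear RNA and proteins. The U5 snRNP joins the U4/U6 snRNP to form the tri-snRNP, and it holds the exons at the catalytic centre. MALAT1 is a nuclear long noncoding RNA of nuclear speckles, where splicing factors are stored.

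Counts over all genes summed to 58147539 in the control and to 61653549 after knockdown. Malat1 had 170402 counts in the control library and 45396 in the knockdown library, which left 24.7% of the control level. Levels are given as CPM, the counts per 1000000 of a library size scaled by edgeR's TMM factor. Differences are given as a log2 fold change of knockdown over control, computed on scaled counts to which 0.5 had been added. Its 95% Clopper-Pearson interval covers counting error only and not the variation between cultures. A total of 17356 genes had at least 10 counts over both libraries. A gene was called higher or lower when it differed by at least 2-fold, and 3.83% of these genes were called higher and 6.02% lower.

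Snrnp40 encodes a WD40-repeat protein of the U5 snRNP that binds Prpf8. The gene is on the plus strand of chromosome 4, between 130360132 and 130390026 (GRCm38, GENCODE M21), and its longest coding transcript has 10 exons. Zcchc17, which encodes a zinc finger protein, starts on the opposite strand close by. The 139 bases between the RefSeq starts of both genes are shown because both genes begin at their ends (GRCm38.p6, chr4:130359993-130360131, plus strand, read towards Snrnp40).

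Snrnp40-Zcchc17: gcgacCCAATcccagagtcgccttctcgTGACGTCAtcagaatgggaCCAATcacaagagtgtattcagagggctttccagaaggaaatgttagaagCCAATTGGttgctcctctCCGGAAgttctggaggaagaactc

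Capitals mark matches on either strand to CCAAT (the CCAAT box), TGACGTCA (the cAMP response element) and CCGGAA (a motif bound by ETS factors). These motifs were picked after the sequence was read, and shorter forms of the ETS motif were not marked. CCAAT matched 4 times, 2 of them overlapping head to head in CCAATTGG. TGACGTCA and CCGGAA matched 1 time each. In the 139 bases before the start in all 32851 RefSeq promoter windows, CCAAT was found in 23.3%, CCGGAA in 8.86% and TGACGTCA in 1.33%. A match describes the letters only, and binding was not measured.

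RefSeq promoter windows (250 bases before to 50 after the start) were found for 4 of the 8 genes, namely Prpf8, Snrnp200, Prpf6 and Cd2bp2. Of these, 3 held CCGGAA on either strand, against 14.9% of all windows. Prpf8 held none, and it alone of the 4 held CCAAT, which was found in 37.4% of all windows. TGACGTCA was in 0 of the 4, against 1.79% of all windows. For each gene with CCGGAA (capitals, or TTCCGG for the other strand), the match nearest to the start is shown with its flanks.

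Snrnp200, chr2:127208343-127208368, plus strand: agcgggcgtcCCGGAAgcggaagcaa
Prpf6, chr2:181601331-181601356, plus strand: agctctctacTTCCGGtgcgcgggtg
Cd2bp2, chr7:127196031-127196056, minus strand: gtgaagccacTTCCGGgtcctatgcc

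The matches begin 33 bases before the start in Snrnp200, 22 bases after it in Prpf6 and 31 bases after it in Cd2bp2.

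Snrnp40 had 7 counts in the control library and 322 in the knockdown library, or 0.121 and 5.18 CPM. The log2 fold change was 5.32 (95% interval 4.36 to 6.74), which is 39.9-fold (20.5 to 107) higher in the knockdown library. It ranked 2nd from the highest among the 17356 genes. With only 7 counts in the control library it met the minimum through the knockdown library alone. It was the 1 gene that had fewer than 10 counts in the control library and at least 300 in the knockdown library, and 0 genes showed the reverse. These limits lie close to its own counts, and the gene was chosen on this contrast. Its rank and its place within the limits therefore describe that choice. Of the 1239 genes with 200 to 500 counts over both libraries, 1.21% were called higher, and after Snrnp40 the highest of these was Tango2, with a log2 fold change of 3.94.

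The level of Snrnp40 was low in the control library and somewhat below the middle of the genes tested in the knockdown library. In the control library 4.35% of the genes tested had a lower CPM, and in the knockdown library 39.2%. Set against the 7 partner genes, Snrnp40 had 9.78 counts per 100000 of theirs in the control library (95% interval 3.93 to 20.2) and 402 in the knockdown library (359.6 to 449). This ratio lies within each library and so does not depend on the scaling between them. It holds the same Snrnp40 counts by which the gene was chosen and is not separate support for the difference.

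The other 7 genes differed little between the libraries, and 0 of the 7 were called. Their log2 fold changes ran from -0.07 in Txnl4a to 0.22 in Eftud2, with a median of 0.06, beside a median of -0.0031 over all genes tested. Of the 7 genes, 4 had an interval above 0, 1 below 0 and 2 across 0. Over all genes tested, 26.7% had an interval above 0 and 26.4% below 0, and 3.83% were called higher and 6.02% lower. The counts of these genes were much higher than those of Snrnp40, and among the 5193 genes with at least 5000 counts over both libraries 86.0% had a log2 fold change between -0.3 and 0.3.

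Prpf8 is the scaffold of the spliceosome's catalytic centre and the protein that the other large U5 subunits hold on to. It was the most abundant of the 8 mRNAs, with 27552 counts in the control library and 30855 in the knockdown library. Its level went from 477 to 497 CPM, a log2 fold change of 0.06 (95% interval 0.03 to 0.08). Eftud2 is the GTPase of the particle. Its 6549 and 8187 counts gave 113 and 132 CPM, and its log2 fold change of 0.22 (0.17 to 0.26) was 16.1% above the control level. This was the largest difference among the 7, and it was well under the 2-fold line.

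The helicases of the particle are Snrnp200, which unwinds the U4/U6 duplex, and Ddx23, which helps U6 take the place of U1 at the start of the intron. Snrnp200 had 11956 counts in the control library and 12863 in the knockdown library, which is 207 CPM in each. Its log2 fold change was -0.0011 (-0.04 to 0.03), and its sign turned positive under each of the other scalings, with 0.02 as the highest value. Ddx23 had 6171 and 7233 counts, or 107 and 116 CPM. It was 8.86% higher in the knockdown library, with a log2 fold change of 0.12 (0.07 to 0.17). The intervals of both helicases do not overlap, although neither gene was called. Since they cover counting error only, this does not show that the genes differ beyond the variation between cultures.

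Prpf6 bridges U5 to the U4/U6 snRNP. It had 7282 counts in the control library and 7930 in the knockdown library, which corresponds to 126 and 128 CPM and a log2 fold change of 0.02 (-0.03 to 0.06). Txnl4a is a small thioredoxin-fold subunit, and Cd2bp2 binds it through a GYF domain and leaves before the tri-snRNP is complete. The counts of Txnl4a were 8442 and 8673, or 146 and 140 CPM, with a log2 fold change of -0.07 (-0.11 to -0.02). Cd2bp2 had the fewest counts of the 7, with 3590 and 4271, or 62.2 and 68.7 CPM. Its log2 fold change was 0.14 (0.08 to 0.21), so that this pair of binding partners differed in sign. These intervals too cover counting error only.

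**Figure D1:**
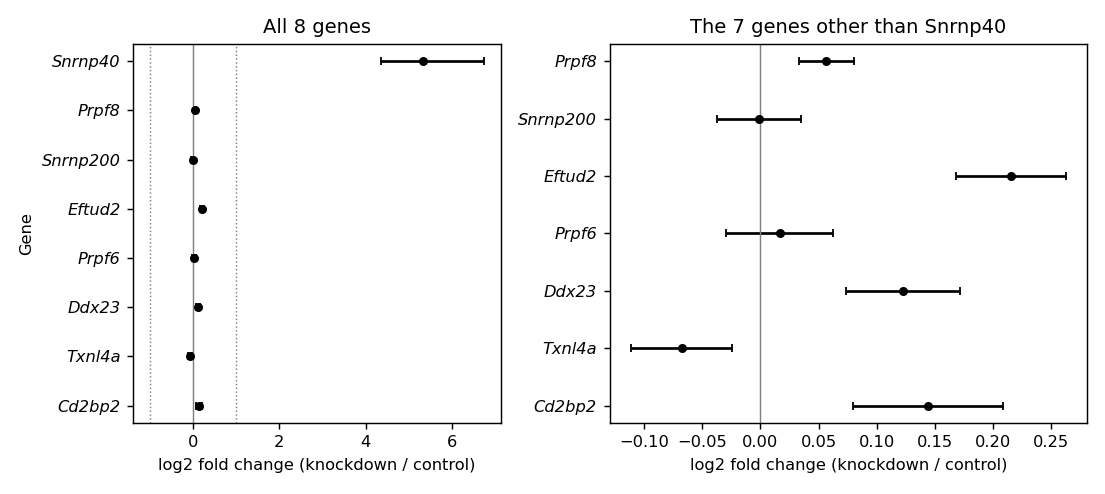
Log2 fold change of each U5 snRNP gene, knockdown over control, as points with 95% intervals of counting error (1 library per group). The left panel shows all 8 genes with dotted lines at 2-fold, where Snrnp40 stands at 5.32 and the others lie near 0. The right panel shows the other 7 on a wider scale, from -0.07 in Txnl4a to 0.22 in Eftud2.

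Some of these genes share sequence or position with others. Txnl4a has a stretch of 294 identical bases in Gm16286, which overlaps it on the same strand, and Cd2bp2 has 288 bases at 98.6% identity with Gm29462. Neither of these other genes is listed in the table, and how reads with several matches were counted is not given in the sources used here. Prpf6 overlaps Zfp512b (5361 and 5544 counts) and Samd10 (53 and 103 counts), which lie on the opposite strand. Eftud2 is likewise overlapped on the opposite strand by Gm26668, a long noncoding RNA gene that the table does not list. The counts of Txnl4a, Cd2bp2, Prpf6 and Eftud2 are uncertain to that extent. For Snrnp40, 0 transcripts of other genes matched over at least 200 bases at 95% identity, and no annotated gene overlapped it.

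Levels can be compared between genes only per length. CPM were divided by the length of the longest coding transcript in kilobases, which may not be the one expressed. In the control library the 7 partners lay between 18.9 CPM per kb (Cd2bp2) and 64.2 CPM per kb (Prpf8), a range of 3.39-fold, with a median of 34.0. In the knockdown library they lay between 20.9 and 66.7 CPM per kb, with a median of 36.5. Prpf6 came second in both libraries, with 41.3 and 41.8 CPM per kb. Behind it the levels of Txnl4a (35.9 and 34.2), Eftud2 (34.0 and 39.5) and Ddx23 (33.6 and 36.5) were close, and their order differed between the libraries. Snrnp200 had 30.7 CPM per kb in both.

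Snrnp40 stood below all of its partners in both libraries. It had 0.0766 CPM per kb in the control library, where the median of the partners was 444-fold higher. In the knockdown library it had 3.27 CPM per kb, and the median of the partners was 11.2-fold higher. The higher value of Snrnp40 was thus still 6.40-fold under Cd2bp2, the lowest of the other genes.

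**Figure D2:**
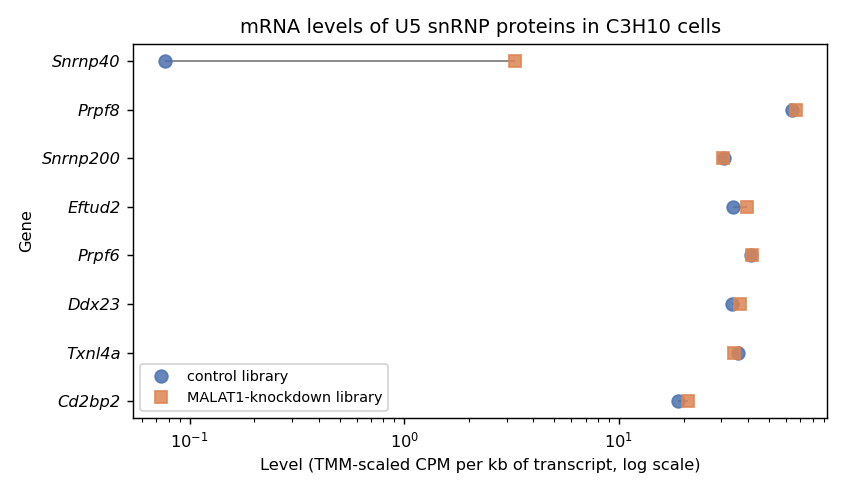
Levels of the 8 mRNAs in TMM-scaled CPM per kb of transcript (log scale) in the control library (circles) and the knockdown library (squares), joined by grey lines. Snrnp40 lies at 0.0766 and 3.27, and the others lie between 18.9 and 66.7 in both libraries.

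The genes beside Snrnp40 on chromosome 4 also had few counts. From Pef1 to Ptpru (130102558 to 131838288) the table lists 14 protein-coding genes in a row, and apart from Snrnp40 and Zcchc17 the other 12 had under 100 counts in each library. The ends of this stretch were set by that limit of 100 counts, from which Snrnp40 and Zcchc17 were exempted by name. Under the limit alone the stretch would have broken at Zcchc17, the gene next to Snrnp40. The low counts inside it and the higher ones at its flanks therefore describe how it was drawn. Of these 12, 6 had 0 counts in both libraries, and a count of 0 allows up to 3 counts, or 0.0520 CPM in the control library. Fabp3, a fatty acid binding protein of muscle and brown fat, was at 0, as was Serinc2. Sdc3 had 56 and 91 counts, and Pef1 had 32 and 22. The genes that flank the stretch were higher, with 6973 and 8444 counts for Col16a1 and 2028 and 1636 for Mecr.

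Zcchc17, whose start faces that of Snrnp40, was kept in the stretch by that exemption although it had over 100 counts. It had 824 counts in the control library and 1233 in the knockdown library, a log2 fold change of 0.47 (0.35 to 0.60). Per 100 counts of Zcchc17 there were 0.850 counts of Snrnp40 in the control library (95% interval 0.341 to 1.76) and 26.1 in the knockdown library (23.0 to 29.6). The Snrnp40 counts in this ratio are again those by which the gene was chosen. Sdc3 lay at a log2 fold change of 0.59 (0.10 to 1.10) and Ptpru at -0.31 (-0.88 to 0.25). Neither of these was called. Tinagl1, with 10 and 4 counts, was called lower at -1.33, and its interval of -3.56 to 0.37 held 0.

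**Figure D3:**
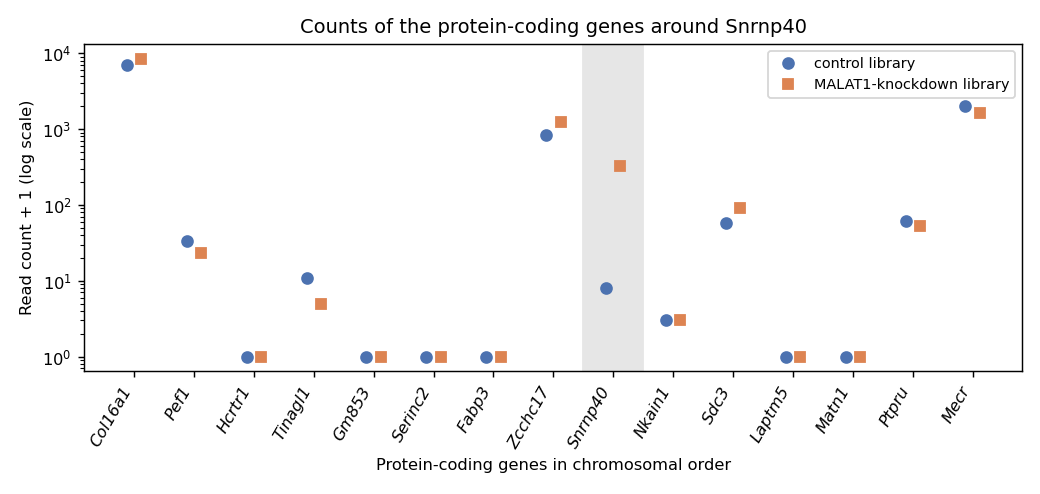
Read counts plus 1 (log scale) of protein-coding genes in chromosomal order from Col16a1 to Mecr, in the control library (circles) and the knockdown library (squares), with Snrnp40 on grey and 1 gene of the stretch not shown. Between the flanking genes, Zcchc17 and, in the knockdown library, Snrnp40 exceed 100 counts.

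The median of the counts summed over both libraries for the 20 nearest protein-coding genes was 42.5 around Snrnp40. Over the 12946 protein-coding genes compared, the middle value of this median was 1380.2, and 13.5% had a lower one. It was 1433 around Prpf8, 2134 around Snrnp200, 2258 around Eftud2, 2362 around Prpf6, 1632 around Cd2bp2, 556 around Txnl4a and 275 around Ddx23. The part of this low-count stretch in the difference of Snrnp40 was not tested.

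The 3 genes with at least 100 counts over both libraries whose log2 fold change came closest to that of Snrnp40 were Tango2 (13 and 223 counts), 9930111J21Rik2 (22 and 295) and Dgcr2 (53 and 395). With 1 library per group, this likeness rests on a single ratio. Their log2 fold changes of 3.94, 3.61 and 2.78 lay 1.38, 1.71 and 2.54 below that of Snrnp40. They too had few counts in the control library, which follows from picking genes with so high a ratio at these summed counts.

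**Figure D4:**
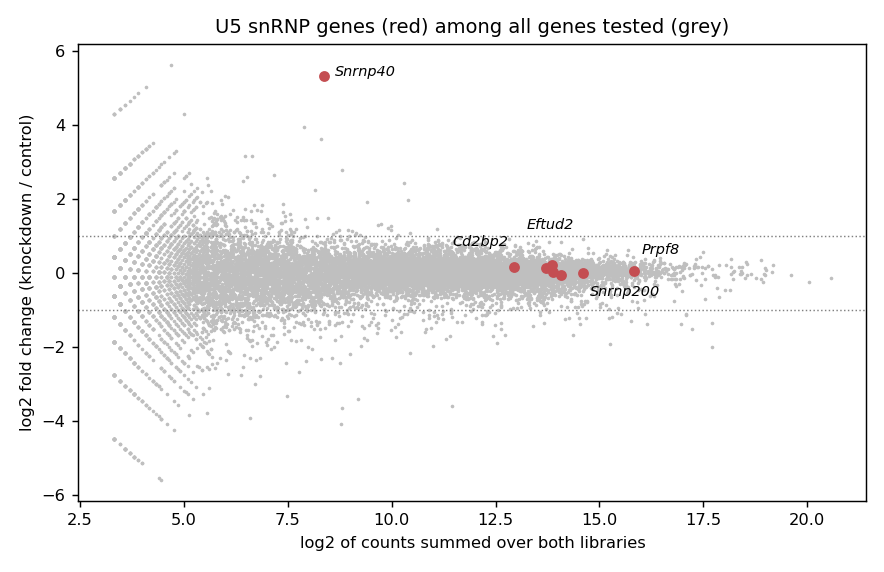
Log2 fold change (knockdown over control) against the log2 of the counts summed over both libraries for 17356 genes (grey), with the 8 U5 snRNP genes in red and dotted lines at 2-fold. Snrnp40 lies apart at 5.32, and the other 7 lie within the band of genes with high counts.

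The rest of the spliceosome was read from lists written by hand. Of 97 splicing protein genes in 11 lists outside the U5 genes, 95 were in the table and 92 had at least 10 counts, and 0 of the 92 were called in either direction. Their median log2 fold change was 0.07, with 42 intervals above 0 and 14 below 0, which is 45.7% and 15.2% of these genes, beside 26.7% and 26.4% of all genes tested. For the calls, the shares over all genes tested were 3.83% higher and 6.02% lower. These shares are not matched for counts. Of the 95 splicing genes, 87 had at least 300 counts in a library, whereas the genes tested include many near the minimum of 10. With few counts, intervals are wide and ratios scatter more, so neither contrast is specific to splicing genes. The 7 partners of Snrnp40, with a median of 0.06, lay inside the range of the lists' medians, from -0.08 to 0.16.

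Among the proteins closest to U5, the 8 assembly factors had a median log2 fold change of 0.02. Ruvbl1, an ATPase of the R2TP chaperone complex, had the highest value at 0.24 (0.15 to 0.34), and Aar2, which binds Prpf8 during assembly, the lowest at -0.14 (-0.24 to -0.04). The 4 U4/U6 proteins in the table had a median of 0.13. Ppih, a prolyl isomerase of the U4/U6 snRNP, had 80 counts in the control library and 141 in the knockdown library, a log2 fold change of 0.71 (0.31 to 1.13). Prpf31, which holds U4 RNA, was at 0.22 (0.13 to 0.30), and Prpf4, a WD40 protein of the same snRNP, at -0.14 (-0.24 to -0.04). The 10 proteins of tri-snRNP joining had a median of 0.03, with Usp39 (21 and 28 counts) at 0.30 (-0.56 to 1.20) and Prpf38b at -0.10 (-0.14 to -0.05).

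The ring proteins that bind small nuclear RNAs had medians a little above 0. It was 0.11 over 7 Sm proteins, where 5 intervals were above 0 and Snrpg was highest at 0.41 (0.25 to 0.58), and 0.16 over 6 LSm proteins, where Lsm8 was at 0.36 (0.24 to 0.49). The U1 proteins had a median of -0.01 over 8 genes, from Luc7l at -0.20 to Snrpc at 0.55, and the U2 proteins one of 0.12 over 14 genes, with 10 intervals above 0 and Snrpb2 highest at 0.23. For the 16 Prp19 complex and related proteins the median was 0.05, and for 7 helicases outside U5 it was 0.11. It was -0.01 for the 3 second step factors and -0.08 for the 9 proteins of the U12-type spliceosome. The medians of the U1 proteins, the second step factors and the WD40 proteins described next turned positive when libraries were scaled by their totals, and that of the U1 proteins also with upper-quartile factors.

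Other WD40 proteins listed with the spliceosome are given beside Snrnp40, which was itself chosen for its difference. All 11 had at least 10 counts and 0 were called, beside 3.83% called higher and 6.02% lower over all genes tested. Their median log2 fold change was -0.02, from -0.25 in Wdr25 to 0.20 in Wdr70. Small nuclear RNAs were not measured in a usable way. Of 15 such genes written down, which included a few small nucleolar RNAs, 12 were in the table, and none had more than 3 counts in a library. Rnu5g, a gene for the U5 RNA itself, had 0 in both.

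**Figure D5:**
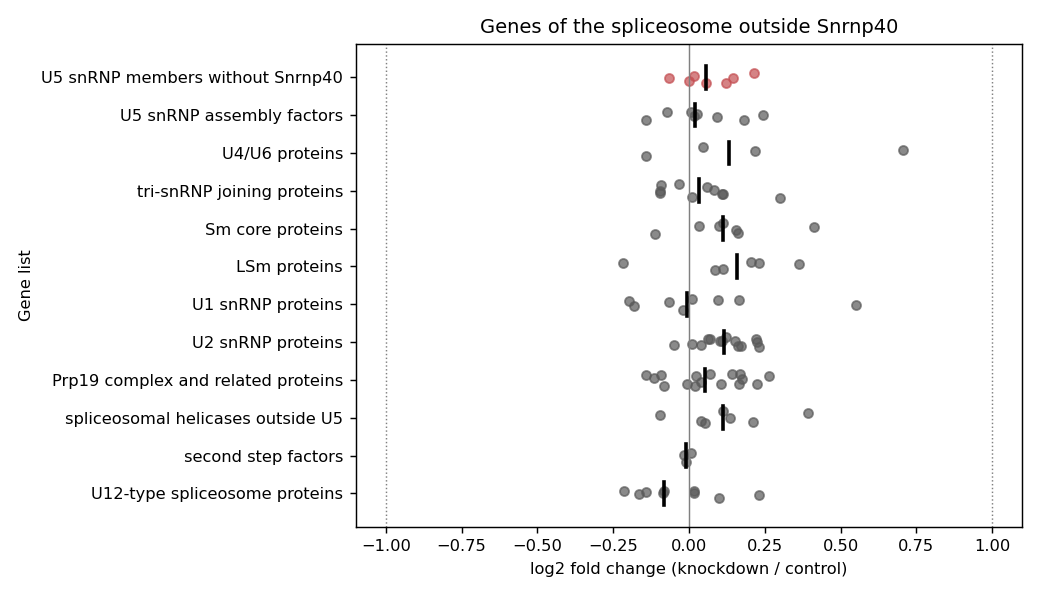
Log2 fold change (knockdown over control) of the 7 U5 snRNP genes other than Snrnp40 (red) and of 11 lists of splicing protein genes (grey), with a black bar at each median and dotted lines at 2-fold. All points lie within 2-fold, and the highest is Ppih at 0.71.

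Some other splicing proteins had few counts in both libraries. Of the 95 in the table, 87 (91.6%) had at least 300 counts in a library, as Snrnp40 did with its 322 in the knockdown library. The other 8, named after their values were seen, were Ppih, Usp39, Snrpn, Lsm2, Lsm5, Lsm7, Snrpc and Ddx39b. Ddx39b, a helicase used by most cells to begin spliceosome assembly, had 0 counts in both libraries, and Lsm2 had 2 and 4. For both, the median of the summed counts of the 20 nearest protein-coding genes was 0. It was 15 around Lsm5, 94.5 around Snrpn, 172 around Snrpc, 247 around Ppih and 753 around Usp39, but 4602 around Lsm7, which itself had 95 and 118 counts.

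Markers of cell state moved between the libraries beside these values. Over all genes tested, 3.83% were called higher and 6.02% lower, and 26.7% had an interval above 0 and 26.4% below 0. Of 11 adipocyte markers, 10 were called lower, with a median log2 fold change of -1.30. None of the 11 was at 0 counts, and their summed level went from 6350 to 2587 CPM. Pparg, the master regulator of adipocyte differentiation, had 11816 and 8552 counts. With a log2 fold change of -0.57 (-0.61 to -0.53) it was the adipocyte marker that was not called. Its interval, like those of all 11 markers, lay below 0. Fibroblast and preadipocyte markers had a median of 0.21 over 11 genes, with 10 intervals above 0 and Cd34 called higher, and a summed level of 20954 and 22947 CPM, while Dlk1 had 0 counts in both libraries. The 10 cell cycle genes had a median of 0.68 with 0 called and 10 intervals above 0 (834 and 1264 CPM in sum), and the 10 interferon-stimulated genes one of 0.41 with 2 called higher (747 and 890.5 CPM in sum). Smooth muscle genes had a median of -0.30 over 4 genes, with 0 called, 1 interval above 0 and 3 across 0. The interval above 0 was that of Acta2, at 0.19 (0.16 to 0.23). The summed level of this list was higher in the knockdown library (239 and 271 CPM), and Cnn1 was at 0 counts. In such bulk RNA, fewer cells of a type and less RNA per cell cannot be told apart, and the part of these shifts in the values of the U5 genes was not tested.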

How the data were processed

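Total RNA was depleted of rRNA and made into directional libraries. The authors deposited the number of reads per gene symbol as raw counts without normalization. The submitters' processing notes name HISAT2 and GRCm38, whereas the counting tool, the annotation and the use of strand are not given in the sources used here. Counts were scaled with TMM factors of edgeR 4.0.16 in R 4.3.3 (0.992 for control, 1.01 for knockdown). Intervals were computed with scipy 1.17.1 in Python 3.11.15. No test was run, since 1 library per group leaves no spread to estimate. The fold change and its interval were checked on simulated counts that held counting error only. Variation between cultures was not simulated, so the check does not cover it. Positions, lengths and neighbours came from GENCODE M21 (GRCm38), in which 88.1% of the symbols tested matched 1 gene, near-identical stretches from BLAST 2.17.0 and promoter windows from RefSeq (GRCm38.p6).

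The members and the 18 gene lists, written by hand, were chosen with earlier results of these data known. Named genes were the members, Malat1, in each splicing list the genes past 2-fold or up to 2 at each end, the nearest neighbours of Snrnp40, genes that overlap a member, the 3 genes closest in fold change and a few markers. As alternatives, scaling used totals, upper-quartile factors or the size factors of DESeq2 1.42.0, the prior count was lowered or raised, low counts were filtered otherwise, and the line was set at 1.5-fold or joined to an interval away from 0. The mature miRNA table was not used here. The values of 1 neighbouring gene are not reported here.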

Additional observations from a re-analysis of the deposited data

How the results depend on the processing

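The log2 fold change of Snrnp40 stayed between 5.06 (prior count of 2) and 5.39 (the lower prior count) under the scalings and prior counts tried. With at least 10 counts required in each library, 0 of the 8 U5 genes were called, since Snrnp40 with its 7 control counts was then left out. That filter left 180 genes called higher and 422 lower over the whole table, against 665 and 1045 as reported. Without a filter they were 2774 and 3139, and at 1.5-fold they were 1437 and 2066. Scaling by library totals moved all log2 fold changes up by 0.02, and the splicing proteins outside U5 then had 47 intervals above 0 and 12 below 0, while the shares over all genes tested moved to 29.6% and 23.9%. Of 240 values under alternatives, 229 counted as unchanged and 11 as moved. A count was unchanged within 1.5 times the reported one, and a log2 fold change within its interval. For a median, the bounds used were the medians of its genes' bounds, which are not an interval of that median. Small changes of sign, as in Snrnp200 and in the list medians named above, thus counted as unchanged. A reversal was looked for only in Snrnp40 and Malat1, and 0 were found. No paired analysis was possible because each group had 1 library. Snrnp40's control level rests on 7 counts, which limits the precision of its fold change, and intervals cover counting error only.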
